A study of Homo sapiens with 8 samples.

Results

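The genes described here are 54 factors that make, cut, modify and assemble ribosomal RNA into ribosomes. They were chosen by name and function, and each gene's value is the sum over its RefSeq transcripts in the deposited tables, 104 transcripts in all. All 54 were found and all 54 reached a mean of at least 1 FPKM (fragments per kilobase of transcript, scaled to the size of the library), as did 13116 of the 25503 genes measured. They fall into 5 groups by role: 5 factors of RNA polymerase I, 7 abundant nucleolar and box C/D snoRNP proteins, 17 proteins of the small-subunit processome, 6 late 40S factors and 19 pre-60S factors.

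The cells were H1, an established line of human embryonic stem cells at passages 40-60, grown without feeder cells on Matrigel in medium with puromycin. Each of the 8 groups was 1 library of total RNA depleted of ribosomal RNA. The 4 shEXOSC3 groups carried a hairpin, induced by doxycycline, that targets EXOSC3, a core subunit of the RNA exosome, and were kept without or with doxycycline for 5 or 7 days. The 4 shNS groups carried a non-silencing hairpin under the same 4 conditions, and so show the values with doxycycline and hairpin expression alone. The labels do not say whether a line was 1 clone.

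A ribosome begins as one long precursor RNA that RNA polymerase I transcribes in the nucleolus. Small nucleolar ribonucleoproteins (snoRNPs) methylate and pseudouridylate it, the small-subunit processome cuts out the 18S part, and separate sets of factors mature the 40S and 60S particles. The nuclear exosome trims the 3' end of 5.8S rRNA and degrades the discarded spacers, and pluripotent stem cells have prominent nucleoli. None of the values here measures ribosomal RNA itself, which was removed from the libraries.

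Summed over its transcripts, EXOSC3 stood at 25.2 FPKM without doxycycline and 11.3 FPKM with it in shEXOSC3 on day 5, while day 7 gave 25.2 and 12.4 FPKM. The remaining levels were 45.0% and 48.9%. For shNS the percentages were 102% and 90.6%, so the libraries followed their labels. Of 9 pluripotency markers 8 were measured and all 8 were above 1 FPKM in every library. Their summed level was 1814 and 1517 FPKM without and with doxycycline in shEXOSC3 on day 5 and 2572 and 2012 FPKM on day 7, against 1755 and 1606 FPKM and 2514 and 2146 FPKM in shNS. The 6 fibroblast markers summed to 16.2 and 26.6 FPKM in shEXOSC3 on day 5 and lay between 20.01 and 31.8 FPKM in the other 6 libraries, nearly all from COL1A1 and COL1A2, while DCN and LUM were at 0 in all 8 libraries. The 5 endoderm, 5 neuroectoderm and 5 mesoderm markers summed to at most 2.54, 1.57 and 0.942 FPKM per list, and 6 trophectoderm markers to at most 10.52 FPKM, mainly KRT7. The 3 most abundant transcripts took 23.8% to 27.6% of FPKM on day 5 and 6.21% to 7.16% on day 7. The part of these differences in the members' values was not tested, and in bulk RNA fewer cells of a type and less RNA per cell cannot be told apart.

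Many genes of ribosome assembly carry an E-box, the letters CACGTG, near their start, and MYC and related factors bind such sites. Promoter sequences of RefSeq (GRCh38.p14), 250 bases before to 50 bases after the gene start, were matched for 45 of the 54 members. CACGTG, which reads the same on both strands, was found in 17 of these 45 promoters (37.8%), in 10.3% of 10118 promoters of all genes kept and in 7.43% of all 27305 promoters. In 14 of the 17 it began within 30 bases of the gene start. UTP18 has 2 sites, 1 beginning 89 bases before the start and 1 at base 5 after it, and counts among the 14 through the latter; the stretch printed holds the former. The following stretches show where it lies in 3 members with a site upstream of the start and in 3 with a site at the start, 5′ to 3′ on the gene's strand with the motif in capitals.
UTP20, chr12:101280045-101280104, plus strand, 60 to 1 bases before the start: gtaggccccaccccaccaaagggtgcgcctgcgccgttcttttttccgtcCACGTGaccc
UTP4, chr16:69132589-69132648, plus strand, 60 to 1 bases before the start: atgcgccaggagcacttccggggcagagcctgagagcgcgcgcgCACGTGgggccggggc
UTP18, chr17:51260426-51260485, plus strand, 120 to 61 bases before the start: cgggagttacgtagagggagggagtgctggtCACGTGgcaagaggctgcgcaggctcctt
FBL, chr19:39846360-39846389, minus strand, 10 bases before to 20 bases after the start: cgcctgcgctcttttcCACGTGcgaaagcc
WDR43, chr2:28894657-28894686, plus strand, 10 bases before to 20 bases after the start: gcgcacggacgaaCACGTGgctgcagcggg
GNL2, chr1:37595918-37595947, minus strand, 10 bases before to 20 bases after the start: cgtacgtcgtgcaCACGTGgtccggcgtgg

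Other promoter motifs were counted in the same windows. On either strand, CCAAT was in 40.0% of the 45 promoters and 37.4% of those of genes kept, TATAAA in 4.44% and 5.63%, and the palindromic motif of NRF1 in 6.67% (3 members) and 2.35%; none of these contains CACGTG. In shEXOSC3 on day 7 the median log2 doxycycline ratio was -0.318 over the 17 members with CACGTG and -0.396 over the 28 without it, and 15 of 17 and 26 of 28 lay below 0. In shNS on day 7 the medians were -0.222 with it and -0.182 without it. The order of these medians was thus not the same in both lines, and none of these differences was tested. A match of letters describes the sequence and not a bound site.

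The question the design asks of these genes is whether their RNA differs with doxycycline more in shEXOSC3 than in shNS. The measure was the log2 ratio of doxycycline over no doxycycline within a line and day, computed as log2((FPKM + 1)/(FPKM + 1)), and with 1 library per group a gene was counted as lower or higher by size alone, at 0.5 on that scale (1.41-fold). Members were lower with doxycycline in shEXOSC3, mostly on day 7. On day 5 their median ratio in shEXOSC3 was -0.088 against 0 over all genes, 37 of 54 lay below 0 (48.2% of all genes did), and 1 member was lower by size (4.14% of all genes). On day 7 the median was -0.35 against -0.004, 50 of 54 lay below 0 (background 50.6%), and 11 were lower by size (background 4.73%). No member (0) was higher by size on either day, against 6.11% and 6.69% of all genes. This background, used throughout, was not matched to the members in level or spread. It includes entries of small RNAs, whose ratios here on day 7 reached -8.48 (MIR1206) and 9.77 (SNORD20). A share by size below it is therefore not read as a result about the members.

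In shNS most members also lay below 0 on day 7, with a smaller median, and most lay above 0 on day 5. On day 5 the members' median ratio in shNS was 0.053 against 0.008 over all genes, and 20 of 54 lay below 0 (background 45.8%). On day 7 it was -0.18 against -0.002, and 46 of 54 lay below 0 (background 50.2%). By size 0 members were lower in shNS on day 5 (background 2.17%) or day 7 (background 2.94%), and 0 were higher (backgrounds 1.95% and 3.32%). At the smaller step of 0.25, 15 members were lower (background 15.8%) and 5 higher (background 19.3%) in shEXOSC3 on day 5, and 42 were lower on day 7 (background 17.8%). For shNS that step gave 2 lower (background 9.11%) and 3 higher (background 8.88%) on day 5, and 15 lower on day 7 (background 12.6%). On both days of a line, 35 members lay below 0 in shEXOSC3 (background 32.8%) and 15 in shNS (background 24.6%). Below 0 in all 4 pairs of libraries were 12 members (background 12.4%).

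**Figure D1:**
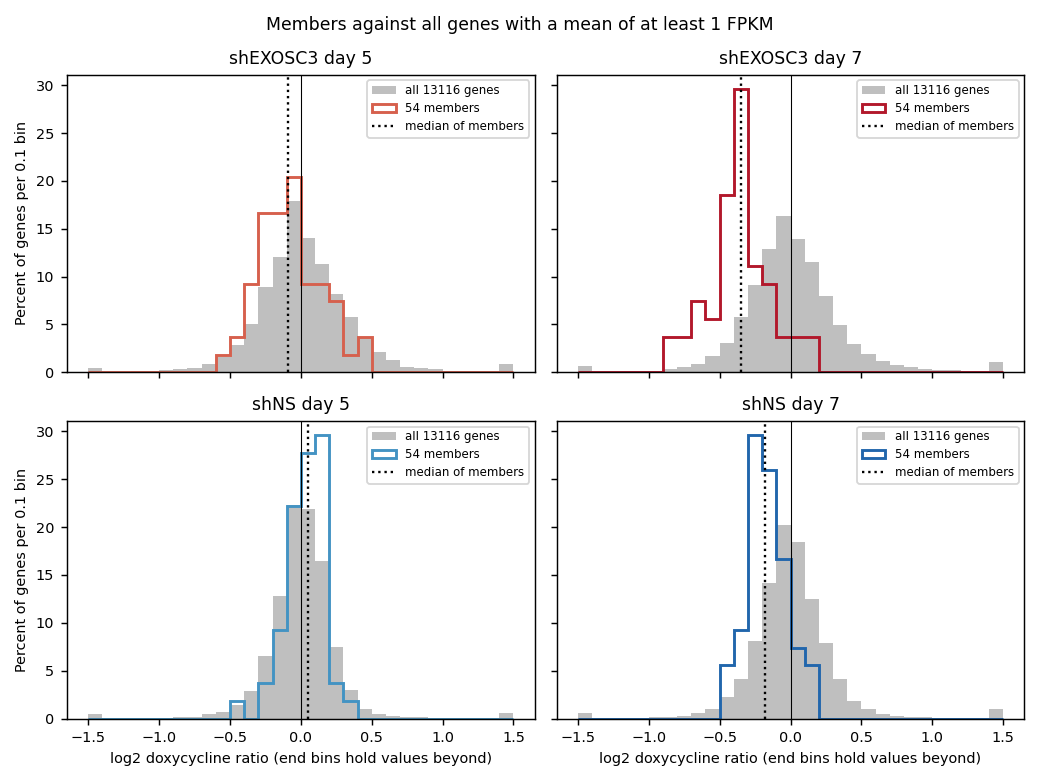
Distribution of the log2 doxycycline ratio, in percent of genes per bin of 0.1, for all 13116 genes (grey) and the 54 members (coloured line) in each line and day, with the members' median dotted. The members' distribution lies left of that of all genes in shEXOSC3 on day 7, where its median is -0.35, and less so in shNS on day 7, where it is -0.18.

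The members' share of all FPKM was lower with doxycycline in each of the 4 pairs, with the widest gap in shEXOSC3 on day 7. Without and with doxycycline it was 0.569% and 0.532% in shEXOSC3 on day 5 and 0.742% and 0.501% on day 7, and in shNS 0.525% and 0.503% on day 5 and 0.733% and 0.65% on day 7. In such a sum the most abundant members weigh most, NPM1 (mean 866 FPKM) and NCL (388 FPKM) first. The members' median level was higher with doxycycline on day 5, at 32.4 and 33.7 FPKM in shEXOSC3 and 32.8 and 34.6 FPKM in shNS. On day 7 it was lower, at 45.3 and 35.6 FPKM and at 46.0 and 40.7 FPKM. Untreated libraries of both lines were close to each other: the median log2 difference of the members, shEXOSC3 over shNS, was 0.063 on day 5 and -0.032 on day 7. Over all genes it was 0.005 and 0.018. Between the doxycycline libraries the members' median was -0.12 and -0.20, against -0.003 and 0.006 over all genes. On day 7, 47 of 54 members were lower in shEXOSC3 (background 47.7%). The last 2 comparisons, of the untreated and of the doxycycline libraries, cross deposited tables, and the sources used here do not say how these were normalized.

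**Figure D2:**
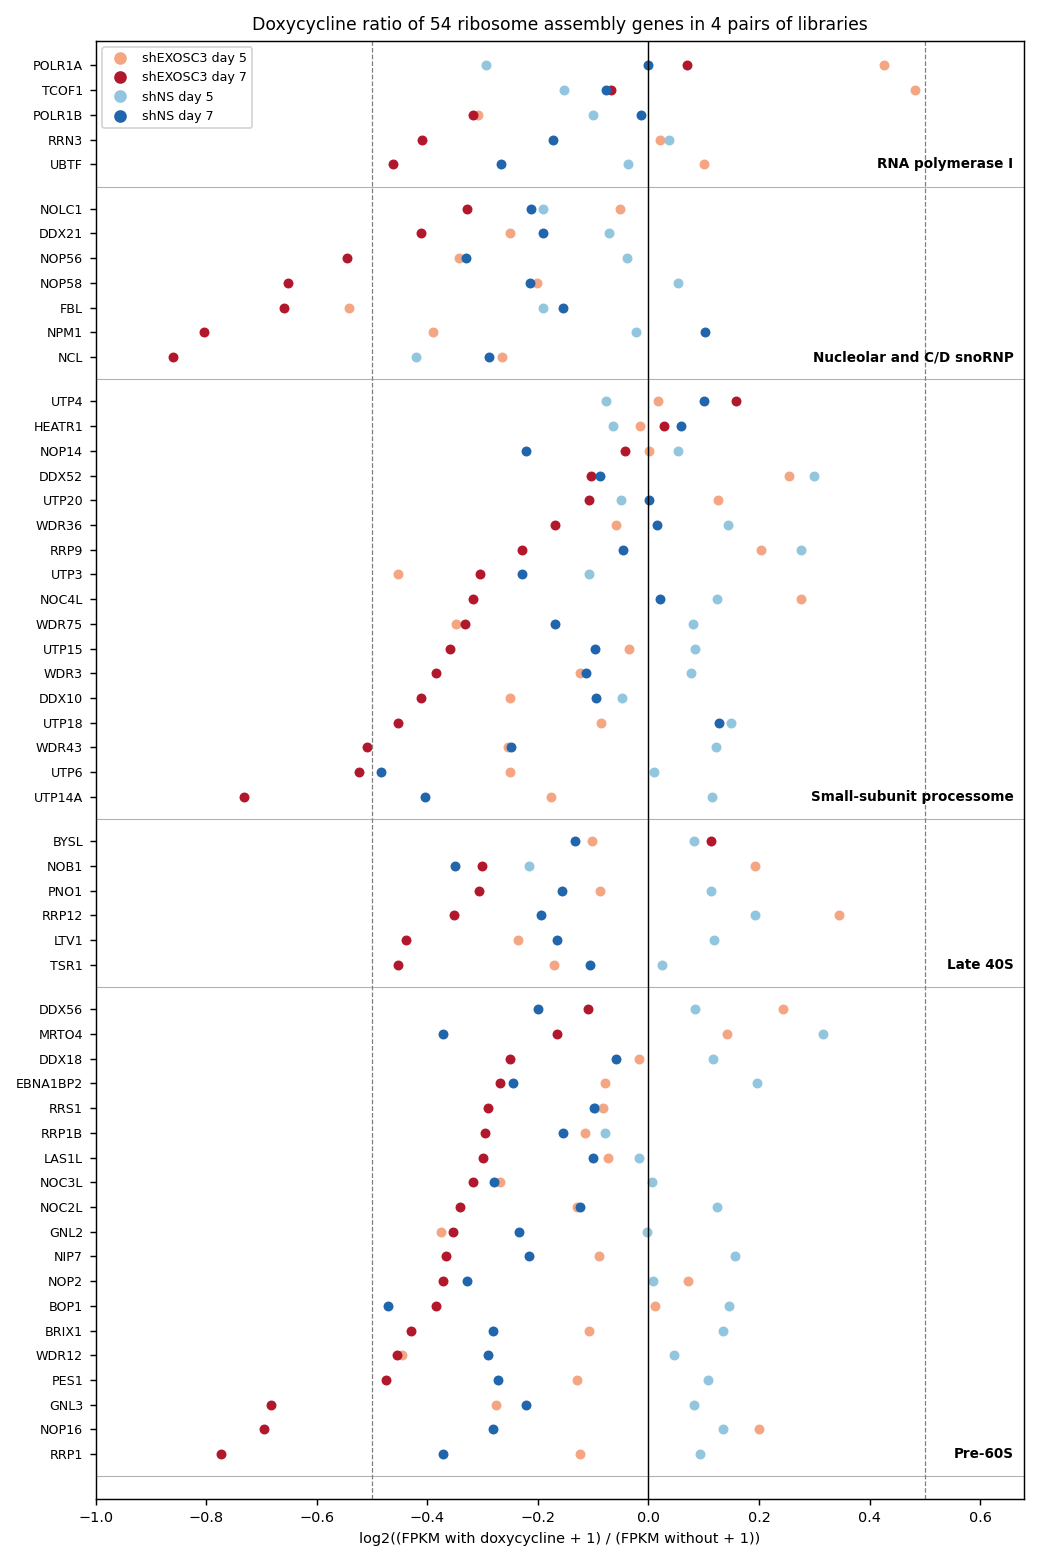
Each row is 1 of the 54 members, grouped by role and ordered by the ratio in shEXOSC3 on day 7, and each point is the log2 doxycycline ratio in 1 line and day, with dashed lines at the size of 0.5. All 7 nucleolar and all 19 pre-60S members lie below 0 in shEXOSC3 on day 7, as do 6 of the 7 and all 19 in shNS on day 7.

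RNA polymerase I makes the precursor, and its 5 factors did not move as one. In shEXOSC3 the group's median ratio was 0.10 on day 5 and -0.32 on day 7, with 1 and 4 of 5 members below 0. In shNS it was -0.10 and -0.076, with 4 of 5 below 0 on each day. POLR1A, the largest catalytic subunit (hg19, chromosome 2, 86253451 to 86333278), stood in shEXOSC3 at 8.22 FPKM without doxycycline and 11.4 FPKM with it on day 5, then 13.5 and 14.3 FPKM respectively on day 7. The control hairpin gave 9.93 and 7.91 FPKM on day 5, then 14.2 and 14.2 FPKM on day 7. It was high in the doxycycline library of shEXOSC3 on day 5 and level in both lines on day 7, and its log2 ratio in shEXOSC3 minus that in shNS was 0.72 on day 5 and 0.070 on day 7.

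POLR1B, the second-largest subunit (chromosome 2, 113299492 to 113334729), stood in shEXOSC3 at 23.6 FPKM without doxycycline and 18.9 FPKM with it on day 5, then 24.2 and 19.2 FPKM respectively on day 7. Under the non-silencing hairpin the levels were 24.4 and 22.6 FPKM (day 5), then 23.9 and 23.6 FPKM (day 7). Both doxycycline libraries of shEXOSC3 were the lowest of the 8, with log2 ratios of -0.31 and -0.32, against -0.10 and -0.013 in shNS. TCOF1, the nucleolar protein treacle and, with POLR1A, the other member higher by size in the difference between lines on day 5, was named after its values were seen; its ratios in shEXOSC3 were 0.48 and -0.067. UBTF, which binds ribosomal DNA, and RRN3, which readies the polymerase for initiation, had ratios in shEXOSC3 on day 7 of -0.46 and -0.41, and in shNS of -0.27 and -0.17. Gene copies close in sequence to RRN3 exist, and the sources used here do not say how reads shared with them were counted.

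The abundant nucleolar and box C/D proteins had the lowest group medians in shEXOSC3 on both days. All 7 lay below 0 in shEXOSC3 on both days, the medians were -0.265 and -0.65, and 5 of the 7 were lower by size on day 7. In shNS 6 of 7 lay below 0 on each day, with medians of -0.072 and -0.21, where the RNA polymerase I group was lower on day 5 and the pre-60S group on day 7. Among the 54 members NPM1 and NCL had the highest mean levels, 866 and 388 FPKM, and in shEXOSC3 they had the lowest ratios of the group on day 7. In shNS on day 7 NPM1 had the highest ratio of the group, 0.10.

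NPM1 codes for nucleophosmin, a chaperone of ribosomal particles and histones (chromosome 5, 170814708 to 170837888). In shEXOSC3 it stood at 960.5 FPKM without doxycycline and 733 FPKM with it on day 5, then 972 and 556 FPKM respectively on day 7. The 4 shNS libraries, in the same order, held 918, 904, 908 and 975 FPKM. The doxycycline libraries of shEXOSC3 were the lowest of the 8 on both days, and the 6 others lay between 904 and 975 FPKM. The log2 ratios were -0.39 and -0.80 in shEXOSC3, against -0.022 and 0.10 for shNS. NPM1 has many processed copies in the genome, so its counted reads are uncertain.

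NCL, nucleolin, binds nascent precursor RNA (chromosome 2, 232319459 to 232329205). Its levels in shEXOSC3 were 418 FPKM without doxycycline and 347 FPKM with it on day 5, then 504 and 277 FPKM respectively on day 7. Its shNS levels were 377 and 281 FPKM (day 5) and 496 and 405 FPKM (day 7). Every doxycycline library was below its untreated partner, in shNS too. On day 5 the gap was wider in shNS, with a log2 ratio of -0.42 against -0.265, and on day 7 it was wider in shEXOSC3, with -0.86 against -0.29.

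FBL is fibrillarin, the methyltransferase of box C/D snoRNPs (chromosome 19, 40325093 to 40337054). Its levels in shEXOSC3 were 357 FPKM without doxycycline and 245 FPKM with it on day 5, then 98.6 and 62.0 FPKM respectively on day 7. The control hairpin gave 319 and 279.5 FPKM on day 5, then 101 and 91.1 FPKM on day 7. Doxycycline libraries were lower in each of the 4 pairs, by more in shEXOSC3, where the log2 ratios were -0.54 and -0.66, against -0.19 and -0.15 in shNS. FBL was the 1 member lower by size on day 5 and again on day 7. All 4 day 7 libraries were far below the 4 day 5 libraries.

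NOP56 and NOP58 form the core of the box C/D particle together with FBL. NOP58 (chromosome 2, 203130515 to 203168384) stood in shEXOSC3 at 97.7 FPKM without doxycycline and 84.8 FPKM with it on day 5, then 169 and 107 FPKM respectively on day 7. Under the non-silencing hairpin the levels were 89.5 and 93.0 FPKM (day 5), then 173 and 149 FPKM (day 7). The day 7 doxycycline library of shEXOSC3 had 63.4% of its partner's level, against 86.1% in shNS.

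NOP56 (chromosome 20, 2633178 to 2639039) stood in shEXOSC3 at 198 FPKM without doxycycline and 156 FPKM with it on day 5, then 210.0 and 144 FPKM respectively on day 7. The 4 shNS libraries, in the same order, held 183, 178, 234 and 186 FPKM. Its ratios were -0.34 and -0.55 in shEXOSC3, against -0.039 and -0.33 for shNS. A noncoding NOP56 transcript held 25.6% to 29.3% of the gene's FPKM on day 5 and 63.2% to 76.4% on day 7. With the coding transcript alone, the ratio in shNS on day 7 was 0.302 and the difference between lines there -0.752, in place of -0.22. With the noncoding transcript alone, which has the higher mean level, they were -0.6 and 0.027, so the day 7 difference of NOP56 depended on the transcript taken.

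NOLC1 (chromosome 10, 103911933 to 103923628), which escorts snoRNPs, had the ratios nearest 0 of the group in shEXOSC3. Its levels in shEXOSC3 were 100 FPKM without doxycycline and 96.4 FPKM with it on day 5, then 153 and 122 FPKM respectively on day 7. Its shNS levels were 94.5 and 82.7 FPKM (day 5) and 157 and 135 FPKM (day 7). Both lines were lower with doxycycline on both days, with ratios on day 7 of -0.33 and -0.21 and differences between lines of 0.14 and -0.115. The NOLC1 transcript with the highest mean level alone gave -0.173 and -0.359. On day 5 another transcript stood higher, at 57.7 and 54.99 FPKM in shEXOSC3 and 55.05 and 42.47 FPKM in shNS. That transcript was near 0 FPKM on day 7. Its day 5 ratios were -0.068 in shEXOSC3 and -0.367 in shNS, so the day 5 difference of NOLC1 depended on the transcript taken. DDX21, an RNA helicase, had ratios of -0.25 and -0.41 in shEXOSC3, against -0.072 and -0.19 for shNS.

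**Figure D3:**
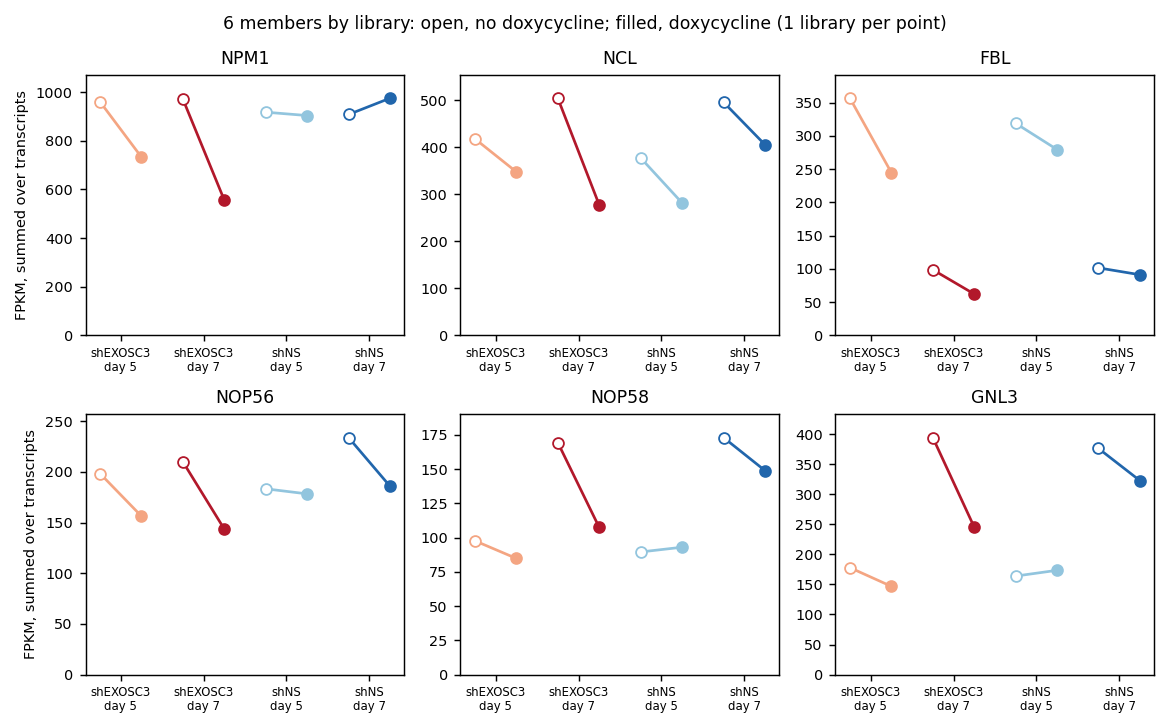
FPKM summed over transcripts in each of the 8 libraries for NPM1, NCL, FBL, NOP56, NOP58 and GNL3, with open points without and filled points with doxycycline and a line joining the 2 libraries of 1 table. The steepest lines are those of shEXOSC3 on day 7 for NPM1, NCL, NOP58 and GNL3, and FBL is at 62.0 to 101 FPKM in the 4 day 7 libraries against 245 to 357 FPKM on day 5.

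The small-subunit processome assembles on the precursor and releases the 18S part. In shEXOSC3 11 of its 17 members lay below 0 on day 5 and 15 on day 7, with medians of -0.059 and -0.32. In shNS 5 and 11 of 17 did, with medians of 0.080 and -0.095. By size 3 members were lower in shEXOSC3 on day 7: UTP6, UTP14A and WDR43, with ratios of -0.52, -0.73 and -0.51 against -0.48, -0.405 and -0.25 in shNS. UTP14A and WDR43 were named after their values were seen, and UTP14A has a retroposed copy, UTP14C, so its reads are uncertain.

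UTP6, a subunit of the UTP-B complex (chromosome 17, 30190190 to 30228729), stood in shEXOSC3 at 53.0 FPKM without doxycycline and 44.4 FPKM with it on day 5, then 125 and 86.4 FPKM respectively on day 7. The control hairpin gave 52.8 and 53.2 FPKM on day 5, then 134 and 95.8 FPKM on day 7. Both lines were lower with doxycycline on day 7 by a like amount, so the difference between lines was -0.040. UTP18, another subunit of UTP-B (chromosome 17, 49337897 to 49375292), stood in shEXOSC3 at 57.5 FPKM without doxycycline and 54.2 FPKM with it on day 5, then 48.4 and 35.1 FPKM respectively on day 7. Under the non-silencing hairpin the levels were 65.3 and 72.6 FPKM (day 5), then 50.6 and 55.4 FPKM (day 7). It was lower with doxycycline in shEXOSC3 and higher in shNS on both days, with differences between lines of -0.24 and -0.58.

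Some processome members were not lower. UTP4, a subunit of the t-UTP complex that binds the precursor early (chromosome 16, 69166499 to 69202937), stood in shEXOSC3 at 21.9 FPKM without doxycycline and 22.2 FPKM with it on day 5, then 17.2 and 19.3 FPKM respectively on day 7. The 4 shNS libraries, in the same order, held 21.6, 20.5, 19.2 and 20.6 FPKM. Its 8 levels lay within 17.2 and 22.2 FPKM, and its ratio of 0.16 was the highest of the 54 members in shEXOSC3 on day 7. HEATR1, of the same complex, had 0.028 there, and NOP14 had -0.043.

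RRP9, a protein of the U3 snoRNP (chromosome 3, 51967442 to 51975957), and the RNA helicase DDX52 (chromosome 17, 35969790 to 36003493) were higher with doxycycline on day 5 in both lines and lower on day 7. RRP9 stood in shEXOSC3 at 26.3 FPKM without doxycycline and 30.4 FPKM with it on day 5, then 11.4 and 9.55 FPKM respectively on day 7. Its shNS levels were 26.8 and 32.6 FPKM (day 5) and 11.4 and 10.99 FPKM (day 7). DDX52 stood in shEXOSC3 at 13.2 FPKM without doxycycline and 15.9 FPKM with it on day 5, then 27.4 and 25.4 FPKM respectively on day 7. The control hairpin gave 14.1 and 17.6 FPKM on day 5, then 28.1 and 26.3 FPKM on day 7. The differences between lines were -0.072 and -0.18 for RRP9 and -0.045 and -0.016 for DDX52.

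Late 40S factors finish the small subunit on its way to and in the cytoplasm. In shEXOSC3 4 of the 6 lay below 0 on day 5 and 5 on day 7, with medians of -0.094 and -0.33, and 0 passed the size on either day. In shNS 1 and 6 lay below 0, with medians of 0.098 and -0.16. LTV1, an assembly factor that leaves the particle late (chromosome 6, 144164508 to 144184943), stood in shEXOSC3 at 43.0 FPKM without doxycycline and 36.4 FPKM with it on day 5, then 79.0 and 58.0 FPKM respectively on day 7. Under the non-silencing hairpin the levels were 34.7 and 37.8 FPKM (day 5), then 85.5 and 76.1 FPKM (day 7). It was lower with doxycycline in 3 of the 4 pairs, and its differences between lines were -0.35 and -0.27.

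NOB1, the endonuclease that makes the 3' end of 18S rRNA (chromosome 16, 69775757 to 69788871), had the highest difference of its group when averaged over days, though BYSL was higher on day 7, with 0.25. In shEXOSC3 NOB1 stood at 19.4 FPKM without doxycycline and 22.2 FPKM with it on day 5, then 22.9 and 18.4 FPKM respectively on day 7. The 4 shNS libraries, in the same order, held 16.1, 13.7, 22.8 and 17.6 FPKM. With doxycycline it was higher in shEXOSC3 on day 5 and lower in the other 3 pairs. Its difference between lines was 0.41 on day 5 and 0.049 on day 7, and with coding transcripts alone 0.704 and -0.93. A noncoding NOB1 transcript held 6.49% to 63.0% of its FPKM across libraries. BYSL, bystin, was the late 40S member above 0 in shEXOSC3 on day 7, with 0.11, against -0.13 in shNS. TSR1, PNO1 and RRP12 had ratios there of -0.45, -0.31 and -0.35.

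Pre-60S factors build the large subunit around 5.8S and 28S rRNA. In shEXOSC3 14 of the 19 lay below 0 on day 5 and all 19 on day 7, with medians of -0.089 and -0.35. In shNS 4 of 19 lay below 0 on day 5 and again all 19 on day 7, with medians of 0.094 and -0.245. The day 7 ratios of shEXOSC3 ran from -0.77 to -0.11 and those of shNS from -0.47 to -0.059. By size 3 members were lower in shEXOSC3 on day 7, RRP1, NOP16 and GNL3, and 0 in shNS.

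GNL3, nucleostemin, is a nucleolar GTP-binding protein abundant in stem cells (chromosome 3, 52719936 to 52742197, a locus that joins neighbouring genes). Its levels in shEXOSC3 were 178 FPKM without doxycycline and 147 FPKM with it on day 5, then 394 and 245 FPKM respectively on day 7. Its shNS levels were 164 and 174 FPKM (day 5) and 376 and 323 FPKM (day 7). The doxycycline library of shEXOSC3 was the lower of its pair on both days, and the shNS pair was split between days. The ratios were -0.275 and -0.68 in shEXOSC3, against 0.082 and -0.22 for shNS. On day 5 most FPKM of GNL3 were given to NM_206826, at 177 and 133 FPKM in shEXOSC3, and on day 7 to NM_014366, at 382 and 237 FPKM. NM_014366 taken alone gave a day 5 ratio of 3.21 from levels of 0.601 and 13.8 FPKM, so only the sum over transcripts was used.

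DDX56, an RNA helicase of the pre-60S particle (chromosome 7, 44605016 to 44614137), had the highest difference of the group when averaged over days. The values were 0.16 on day 5 and 0.089 on day 7, where MRTO4 was higher, with 0.21. In shEXOSC3 DDX56 stood at 18.2 FPKM without doxycycline and 21.8 FPKM with it on day 5, then 16.6 and 15.4 FPKM respectively on day 7. The control hairpin gave 19.2 and 20.4 FPKM on day 5, then 17.5 and 15.1 FPKM on day 7. Its levels lay within 15.1 and 21.8 FPKM in all 8 libraries. RRP1 and NOP16, named after their values were seen, had ratios on day 7 of -0.77 and -0.695 in shEXOSC3, against -0.37 and -0.28 for shNS, and on day 5 of -0.12 and 0.20 in shEXOSC3. The 3 proteins of the PeBoW complex, PES1, BOP1 and WDR12, had ratios on day 7 of -0.47, -0.385 and -0.455 in shEXOSC3, against -0.27, -0.47 and -0.29 for shNS.

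Subtracting the shNS ratio of the same day gives the difference between lines, and by it the members were lower in shEXOSC3 on both days by a similar median. The median was -0.19 on day 5 against -0.001 over all genes and -0.185 on day 7 against -0.01. Below 0 were 39 of 54 on day 5 (background 50.1%) and 45 on day 7 (background 51.4%), and 35 were below 0 on both days (background 28.9%) against 5 above 0 on both days (background 26.0%). By size 0 members were lower on day 5 (background 4.31%) and 4 on day 7 (background 5.12%), a share near the background. The 4 were NPM1 at -0.91, UTP18 at -0.58, NCL at -0.57 and FBL at -0.51. Higher by size were POLR1A and TCOF1 on day 5, 2 members (background 6.90%), and 0 on day 7 (background 7.31%). On both days together 0 members were lower by size (background 0.64%), and 7 were lower by 0.25 (background 4.32%). That smaller step was reached by 16 members on day 5 (background 18.7%) and 17 on day 7 (background 17.8%).

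**Figure D4:**
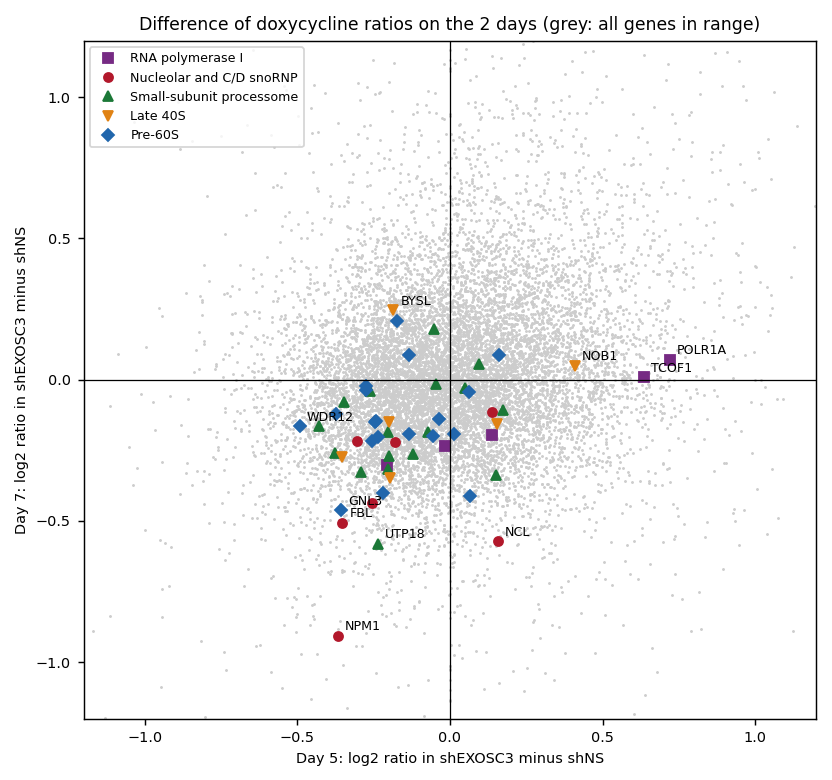
Each point is 1 gene, with the difference of log2 doxycycline ratios (shEXOSC3 minus shNS) on day 5 on the x axis and on day 7 on the y axis; members are coloured by role, and all genes within 1.2 of 0 are grey. Of the 54 members 35 lie in the lower left, where both days are below 0, with NPM1 the lowest on day 7.

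The 4 ratios allow a single fit, in which limma sets the difference between lines against the spread between the days of a line. By limma 0 of the 54 members passed an adjusted p of 0.05 (0 of 13116 genes, 0.0%), and the smallest adjusted p of a member was 0.747. At an unadjusted p under 0.05 there were 2 lower members (background 2.74%) and 0 higher (background 3.12%). These were FBL, with a limma estimate of -0.43 (SE 0.12, unadjusted p = 0.0203), and NPM1, with -0.64 (SE 0.20, unadjusted p = 0.0294); both were below 0 on both days. The members at an unadjusted p under 0.05 depended on which pair of libraries was left out, where the lone ratio of a line is assumed to vary like the others. They were FBL, NPM1 and UTP18 without shEXOSC3 day 5, WDR12 and WDR75 without shNS day 7, and 0 members without shNS day 5. Without shEXOSC3 day 7 they were NOB1 and TCOF1, both higher.

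The mean ratio over both lines was tested in the same fit. By limma 0 members passed at an adjusted p of 0.05 (12 genes of 13116, 0.0915%), and the smallest adjusted p was 0.135, for FBL, with an estimate of -0.39 (SE 0.061) and below 0 in 4 of 4 pairs. With coding transcripts alone FBL passed, with an adjusted p of 0.0297 by limma. At an unadjusted p under 0.05 there were 14 lower members (background 8.58%) and 0 higher (background 8.45%). That number was far lower without shEXOSC3 day 7 and without shNS day 7, and the share of all genes in those fits was not computed.

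In the authors' deposited tables, which test 1 library against 1 library per transcript, few of the members' p-values were below 0.05. There were 0 of 76 tested member transcripts in shEXOSC3 on day 5, against 4.58% of all tested transcripts, and 6 of 85 on day 7 (7.06% against 5.1%). In shNS there were 2 of 79 on day 5 (2.53% against 4.17%) and 5 of 83 on day 7 (6.02% against 6.32%). The smallest q-value of a member transcript in the authors' deposited tables was 0.427, for shNS on day 7.

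Across the 54 members the ratios of the 2 days went together in shEXOSC3, and had no clear relation in shNS. Pearson's r across genes was 0.508 and Spearman's rho 0.558 in shEXOSC3, where rho over all genes was 0.449. In shNS r was -0.084 and rho -0.102, where rho over all genes was 0.124, also the lower of the lines. On day 7 the 2 lines had r of 0.413 and rho of 0.462 over the members, against a rho of 0.319 over all genes. Genes are not independent replicates, and both days of a line share that line. In shEXOSC3 the more abundant members had the lower ratios, with rho against the log2 mean FPKM of -0.63 on day 5 and -0.493 on day 7, against -0.242 and -0.213 over all genes. In shNS the members' rho was -0.144 and -0.159, against 0.117 and -0.152 over all genes. The mean is taken over the same libraries as the ratio.

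Levels of the members also differed between days without doxycycline. This comparison too crosses deposited tables whose normalization is not given. In untreated cells the median log2 ratio of day 7 over day 5 was 0.39 in shEXOSC3 and 0.41 in shNS, against -0.083 and -0.087 over all genes. The sign was the same in both lines in 49 of 54 members (88.9% of all genes). With the pseudocount, 6 members were at least 1 log2 unit higher on day 7 in both lines (5.97% of all genes): RRN3, UTP6, UTP14A, UTP15, NOP2 and GNL3. NIP7 was 2.01-fold and 2.08-fold higher by FPKM without the pseudocount, and its log2 ratio with it was 0.983 in shEXOSC3. At least 1 log2 unit lower were 4 (10.4% of all genes): FBL, RRP9, NOC4L and BYSL. Those of the genes listed here that are not named above were named after their values were seen. The day ratio went with base composition: rho with the GC share of the gene's main transcript was -0.471 and -0.451 over the members and -0.495 and -0.491 over all genes, and its part in the day difference was not tested.

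Other genes of the pathway also lay mostly below 0 in shEXOSC3. Of 97 further genes of ribosome assembly, 84 lay below 0 in shEXOSC3 on day 7 (background 50.6%), with a median of -0.26. By size 8 were lower (8.25%, background 4.73%) and 0 higher (background 6.69%). On day 5, 65 of 97 lay below 0 in shEXOSC3 (background 48.2%), with a median of -0.11, against -0.088 for the members. In shNS on day 7 it was 78 (background 50.2%), with a median of -0.125 and 0 lower by size (background 2.94%). The difference between lines had a median of -0.12 on day 5 and -0.14 on day 7. Below 0 were 67 and 72 of 97 (backgrounds 50.1% and 51.4%). By limma 0 of the 97 passed an adjusted p of 0.05 (background 0.0%). GAR1, a core protein of the H/ACA snoRNPs that guide pseudouridylation, had the lowest mean difference of the 97, with -0.45 and -0.565. It stood in shEXOSC3 at 17.7 FPKM without doxycycline and 12.1 FPKM with it on day 5, then 8.33 and 4.61 FPKM respectively on day 7. Its H/ACA partner NHP2 had differences of 0.12 and 0.20. DCAF13, of the small-subunit processome, had -0.47 and -0.45, PAK1IP1, of the large-subunit list, -0.53 and -0.29, and TAF1C, of the RNA polymerase I promoter factor, 0.71 and -0.003. By the mean over days, the highest of the small- and large-subunit lists were NOL6, with 0.16 and 0.13, and DDX51, with 0.15 and 0.18. POLR1H was by that mean the lowest of the RNA polymerase I list, with -0.25 and -0.15.

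The mRNAs of ribosomal proteins had a median difference between lines that was below 0 on day 5 and near 0 on day 7. Of 79 genes 77 passed the minimum level, and their median difference between lines was -0.30 on day 5 and 0.051 on day 7. Below 0 were 64 of 77 on day 5 (83.1%, background 50.1%) and 32 on day 7 (41.6%, background 51.4%). By size 17 were lower on day 5 (22.1%, background 4.31%) and 3 on day 7 (3.9%, background 5.12%). Higher by size were 2 on day 5 (background 6.9%) and 2 on day 7 (background 7.31%). Their medians with doxycycline were -0.16 and -0.145 in shEXOSC3, against 0.12 and -0.19 for shNS. The extremes were RPSA, at -0.25 and -1.90, and RPS16, at 1.90 and 0.062; ribosomal protein genes have many processed copies, so their values are uncertain.

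MYC and MYCN, transcription factors known to drive genes of ribosome assembly, were measured beside the members. MYC stood in shEXOSC3 at 16.0 FPKM without doxycycline and 14.9 FPKM with it on day 5, then 34.2 and 24.8 FPKM respectively on day 7. Under the non-silencing hairpin the levels were 17.1 and 12.8 FPKM (day 5), then 33.2 and 31.4 FPKM (day 7). MYC was lower in every doxycycline library than in its partner, and its differences between lines were 0.30 on day 5 and -0.37 on day 7. MYCN stood in shEXOSC3 at 62.9 FPKM without doxycycline and 52.9 FPKM with it on day 5, then 39.5 and 29.5 FPKM respectively on day 7. The 4 shNS libraries, in the same order, held 55.4, 56.6, 40.3 and 35.9 FPKM. Whether MYC or MYCN had a part in the members' values was not tested. MYCN had differences between lines of -0.28 and -0.24, and 28.9% of all genes were below 0 on both days by that measure. Of 11 genes of the MYC network 10 passed the minimum level, with medians of 0.017 and -0.13 and, at the ends, MXI1 at -0.44 and -0.10 and MXD4 at 0.275 and 0.27.

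Members also host small RNAs in their introns, and the tables list these separately. By the gene positions of RefSeq, 18 snoRNA entries of 71 to 137 nucleotides lay inside 6 members: NOP56, NOP58, NCL, WDR43, TSR1 and GNL3. Of the 18, 11 were listed at 0 in all 4 day 5 libraries and 11 were above 0 in all 4 day 7 libraries. On day 7 the entries were higher with doxycycline in 12 and lower in 5 cases in shEXOSC3, and higher in 10 and lower in 8 in shNS. These counts go by sign alone, whatever the size of the step, and 50.6% and 50.2% of all genes were lower there. All 6 host genes were lower with doxycycline in both lines, as were 50 and 46 of all 54 members. SNORD86, in NOP56, was listed at 7836 and 5258 FPKM in shEXOSC3 and at 8683 and 10470 FPKM in shNS on day 7. SNORA75, in NCL, was listed at 871 and 1079 FPKM and at 1216 and 972 FPKM. Of the 18, 5 were listed at 0 in one library of a day 7 pair and above 100 FPKM in the other. No ratio is therefore given here for these RNAs. SNORD20, in NCL, is one of them, at 0 and 869 FPKM in shEXOSC3, and its ratio above only marks the range of all genes.

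The members' length and base composition were near those of all genes. Their transcripts had a median length of 2464 nucleotides and 47.8% GC, against 2715 nucleotides and 48.6% over all genes. On day 5 the difference between lines was higher at higher GC across the 54 members, with a rho of 0.386 (0.235 over all genes), and on day 7 rho was 0.116 (0.178 over all genes). POLR1A, with the highest day 5 difference, has a transcript of 12749 nucleotides and 51.7% GC. The 31 members with 1 transcript, whose FPKM need no sharing of reads among transcripts, had a median ratio of -0.34 in shEXOSC3 on day 7 and -0.15 in shNS, and the 23 with several had -0.36 and -0.21.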

How the data were processed

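The data were 4 deposited tables of FPKM, 1 per line and day with both its libraries, for 49235 RefSeq transcripts. Per the submitters' processing notes, the authors used CASAVA 1.8, TopHat and Cufflinks on hg19 (GRCh37); the sources used here do not give the other versions, the annotation, the normalization or the strand. Each p-value and q-value the authors deposited tests 1 library against 1 library. Depth is unknown, since the values are no counts and FPKM steps depend on transcript length; the precision is that of 1 library per group. Per the labels' protocols, RNA was extracted with Trizol, given spike-in RNA, depleted with Ribo-Zero and prepared with the ScriptSeq v2 kit.

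Accessions were matched to symbols through a RefSeq table (GRCh38.p14; 97.8% matched, 1088 transcripts unmatched). Genes with any of the 164 transcripts marked as failed or too deep were left out, FPKM were summed per gene, and genes under a mean of 1 FPKM were dropped. Ratios were taken within a table with a pseudocount of 1, which understates low genes. limma 3.58.1 in R 4.3.3 with a trend fitted the 4 ratios (2 residual degrees of freedom, Benjamini-Hochberg over 13116 genes). Since the days are not replicates, its p measures the spread between days. On simulated ratios of this line comparison over 13116 genes, 157 of 200 genes changed by 2 log2 units were recovered and 3 unchanged genes were called. No member differed between lines by that much, the largest difference being -0.906, for NPM1 on day 7. Recovery at such smaller sizes was not simulated, so it is unknown for the members. Coordinates are deposited loci, which can join overlapping genes. The members, lists and tests were chosen with earlier results of these data known, so no list is independent evidence. Genes named with all 8 values were EXOSC3, the highest and lowest mean difference of each role, the 4 highest and 4 lowest mean ratios, any passing limma or the size on both days, and NPM1, NCL, FBL, NOP56 and NOP58; further lists give their highest and lowest gene.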

Additional observations from a re-analysis of the deposited data

Results flagged for a closer look

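In 2 members the ratio lay below 0 on both days in shEXOSC3 and above 0 on both days in shNS. The share of all genes with this pattern of signs was not computed, so the pattern is not read as a result about the members. UTP18 had a difference between lines, averaged over days, of -0.409 (limma SE 0.162, unadjusted p = 0.0591, adjusted p = 0.747). WDR36, another processome protein, had -0.194 (limma SE 0.118, unadjusted p = 0.169, adjusted p = 0.747), with ratios of -0.059 and -0.17 in shEXOSC3, against 0.14 and 0.016 for shNS. The design has 1 library per group, and neither difference passed the test.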

How the results depend on the processing

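Among the counts and medians tried, 156 values stayed within their limits and 35 moved. The limit was a set fold for a count and the SD over the 2 days for a median. For the difference between lines that SD was 0.004, so small shifts counted as moved. Of the medians 0 changed sign, and a count cannot. Apart from the size of 0.25, the share of all genes by size was not computed under these other settings. The counts that follow are therefore not read against a background. In one setting each gene's transcript of highest mean level took the place of the sum. With it, 2 members were lower and 2 higher by size in shEXOSC3 on day 5, and 1 was higher on day 7. In shNS on day 7 it was 2 lower and 2 higher, and in the difference between lines 1 lower and 6 higher on day 5 and 7 lower on day 7, 1 on both days, with a day 5 median of -0.185. At a size of 1 the counts were 0 lower in shEXOSC3 on days 5 and 7, 0 higher in the difference on day 5 and 0 lower on day 7. At 0.25 they were 15 and 42 lower and 5 higher on day 5 in shEXOSC3. In shNS they were 2 lower and 3 higher on day 5 and 15 lower on day 7, and in the difference 16 and 17 lower and 7 on both days. A pseudocount of 0.1 gave 1 lower in shNS on day 7, 1 lower in the day 5 difference and medians of -0.197 and -0.192; a pseudocount of 5 gave -0.174 and -0.156. The day 5 median was -0.195 at a minimum of 5 FPKM and -0.182 after centring on all genes. Doxycycline libraries compared across tables gave -0.124 and -0.202. With coding transcripts alone 1 member, NOB1, was higher in shNS on day 7, and 1, FBL, passed limma for the mean ratio. The cause of these shifts was not tested. The labels give no replicate numbers; with the day as a block, which pairs the lines by day, 0 members passed. Leaving out each table in turn gave 0 members at an adjusted p of 0.05 in both limma tests, and 0 to 3 at an unadjusted p in the line difference. Depth is unknown, so what it limits could not be set.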
